A study of Arabidopsis thaliana with 9 samples.

Results

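The genes described here rose in 2 steps, from floral buds to pollinated flowers and from pollinated flowers to cultured pollen tubes of Arabidopsis thaliana. They comprise 176 probe sets for 176 genes, of 13513 probe sets with one annotated gene and 22746 probe sets in all. A probe set was a member if its mean signal in vivo was at least 3 times the bud mean and at least 200, and its mean in vitro was at least 2 times the in vivo mean. In addition, all in vivo arrays had to lie above all bud arrays and below all in vitro arrays. The pattern was met by 289 probe sets, 1.27% of those measured. Of these, 190 had one annotated gene, and 14 of the 190 were left out by name: ANX1, ANX2, GH9A4, GH9B11, PLIM2a, PLIM2b, RALFL25, RALFL26, scpl38 and the loci AT1G30710, AT1G49490, AT2G21480, AT3G19020 and AT4G39110. The remaining 99 had several genes or none in the gene table and were not described. Because the rule used all 3 contrasts between the groups, the members' levels and ratios below are a description and carry no test.

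All samples came from plants transgenic for LAT52-HF-RPL18, in which LAT52, a promoter active in maturing pollen and pollen tubes, drives ribosomal protein L18 with a FLAG tag. Growth was at 22 °C in 18 h days and 6 h nights. Polysomes were taken from 20% to 60% sucrose gradients and captured through the tag, so a signal was meant to report mRNA bound to tagged ribosomes. It was read on Affymetrix arrays after 1 round of RNA amplification. For the bud group, stage 11 to 12 floral buds were used. The in vivo group was stage 14 flowers holding self-pollinated pollen tubes, and the in vitro group was pollen tubes grown in culture. Each group had 3 biological replicates, 9 arrays in all. In the series text the bud material is given as unpollinated styles, whereas its samples are labelled as floral buds, and here the labels of the samples were used.

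A pollen tube grows at its tip, where secretory vesicles deliver new membrane and wall material while the wall behind is stiffened. Actin filaments carry the vesicles, and calcium and phosphoinositide signals at the tip plasma membrane set where they fuse. Much of the mRNA a tube needs is made before germination and is translated during or after it.

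Each array had been scaled to a mean of about 500 after trimming, so each signal is relative to the other signals of that array, and signals of different probe sets are not amounts of mRNA that can be set against each other. The median signal over all probe sets was 174 to 196 on the bud and in vivo arrays but 68.6 to 112 in vitro, where fewer probe sets took more of the signal. In vitro replicate 3 stood apart, with a highest signal of 664123 against 113249 and 145326 on replicates 1 and 2 and a median of 78112 for its 18 hybridisation controls, against 1719 to 17568 on the other 8 arrays. In vivo replicate 1 stood apart too, with a highest signal of 26903 against 93174 and 77312 on in vivo replicates 2 and 3 and a control median of 1719 against 11973 and 10910. Without it, 194 genes met the rule, against 176 with all arrays, and 172 were in both sets. Without in vitro replicate 3 the ratio of in vitro to in vivo means ran from 2.64 to 110 over the members, with a median of 21.3, against 22.5 with it.

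Markers of green tissue, tapetum, pistil and ovule, and nectary and petal gave signal in the flower samples. The summed signal of the 4 measured photosynthesis genes (of 15 listed), RCA, PSAN, PSBY and LHCB4.2, was 31192 to 56986 on bud arrays, 30032 to 45862 in vivo and 286 to 602 in vitro. The 5 measured tapetum genes (of 15 listed), markers of the anther layer that nourishes pollen, summed to 14612 to 23313 in buds, 521 to 1063 in vivo and 113 to 876 in vitro. One of them, EMS1, read 457 to 877 in bud and 468 to 827 in vivo, while the other 4 were called lower in vivo. The 3 measured pistil and ovule genes (of 11 listed), FER, INO and SPT, gave 1951 to 2830, 2139 to 2682 and 166 to 341. The 3 measured nectary and petal genes (of 9 listed) gave 1086 to 2680 in buds, 11558 to 17405 in vivo and 280 to 741 in vitro. SWEET9 and AT3G25810 rose from bud to in vivo, while BSMT1 fell from 784 to 1504 in bud to 86.3 to 122 in vivo (adjusted p = 0.033, limma). The 2 measured sperm cell genes (of 9 listed), MGH3 and TET11, gave 632 to 1031, 246 to 346 and 4343 to 6163. None of these markers was a member, and none was listed at 0. In such mixed samples, fewer pollen tubes and less mRNA per tube cannot be told apart. The part of these markers in the members' steps was not tested.

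The 176 members took a small share of the signal in buds and a large one in cultured tubes. Their summed signal was 0.745%, 0.609% and 0.300% of all signal on bud replicates 1, 2 and 3. It was 2.40%, 2.67% and 4.28% on the in vivo arrays and 21.8%, 21.5% and 28.0% on the in vitro arrays. In the middle of the group, the median of the members' bud means was 196, close to the median of 192 over all probe sets, and 89 of 176 members lay above that median. The members' median rose to 945 in vivo and 24500 in vitro, and all 176 lay above the medians of all probe sets in vivo (188) and in vitro (80.2). The rule fixed that count, since it required an in vivo mean of at least 200 and a higher mean in vitro. In vitro, 81 members were among the brightest 1% of probe sets and 166 among the brightest 5%.

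**Figure D1:**
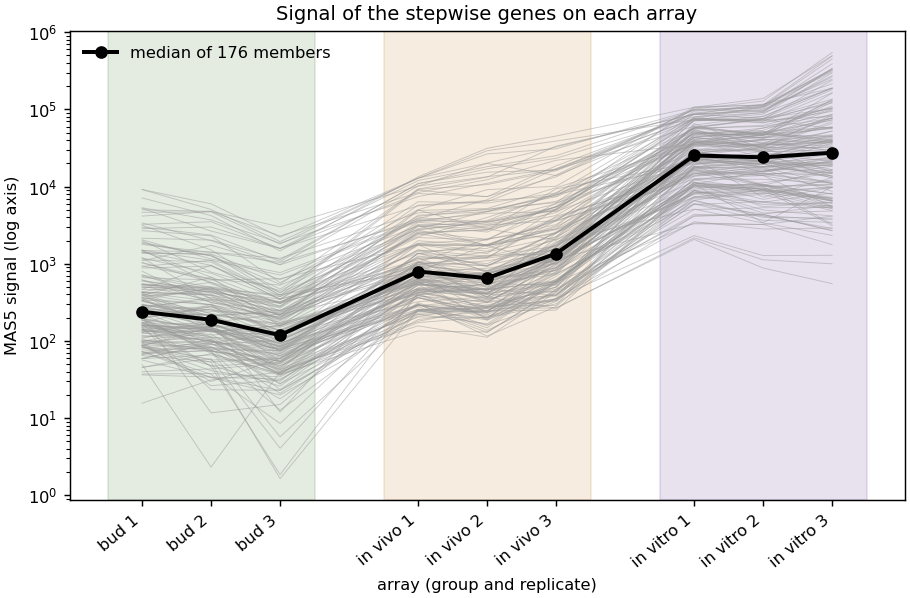
MAS5 signal (log axis) of each of the 176 members (grey lines) on the 9 arrays, with their median (black). The median is 239, 188 and 119 on the bud arrays, 793, 652 and 1353 in vivo and 25315, 23941 and 27457 in vitro.

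The second step was the larger one for most members. The ratio of in vivo to bud means had a median of 5.38 and reached 17.5, and it was above 10 for 11 members. The ratio of in vitro to in vivo means had a median of 22.5 and reached 124, and it was above 10 for 130 members and above 50 for 26. It exceeded the first ratio for 159 members and was the smaller one for 17, among them PPDK and APPB1. In the pollinated flower the members stood at 0.807% to 40.9% of their level in cultured tubes, with a median of 4.44%.

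For these contrasts, limma on log2(signal + 16), with Benjamini-Hochberg adjustment over all 22746 probe sets, called 147 of the 176 members higher in vivo than in bud, where 2.15% of all probe sets were called higher. All 176 were called higher in vitro than in bud and higher in vitro than in vivo, where 20.4% and 20.0% of all probe sets were. The median log2 difference of the members was 2.28, 6.65 and 4.46 in these 3 contrasts, and that of all probe sets was -0.02, -0.42 and -0.36. The rule selected on the same contrasts, so nothing is read from these counts.

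**Figure D2:**
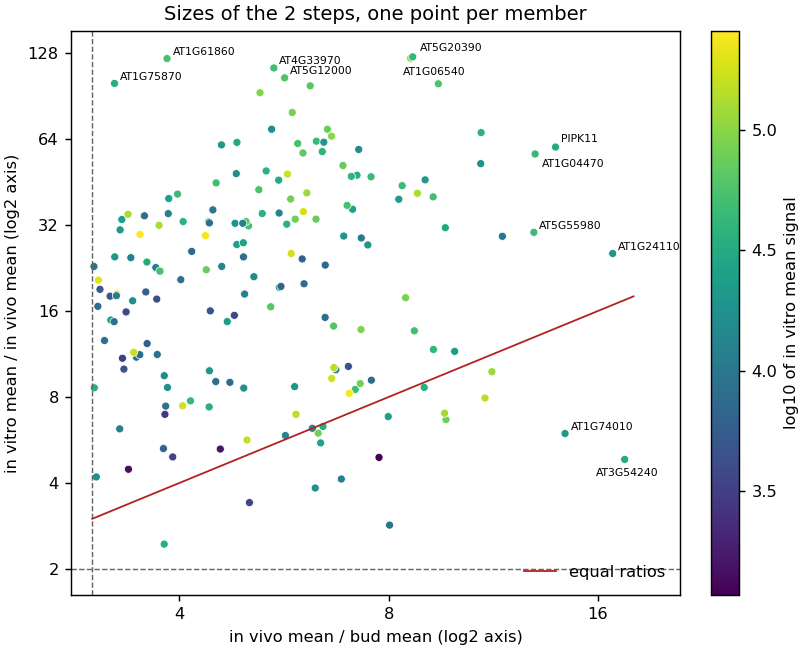
Ratio of in vivo to bud means (x, log2 axis) and of in vitro to in vivo means (y, log2 axis), 1 point per member, coloured by the in vitro mean. Dashed lines mark the thresholds of 3 and 2, and the 159 members above the red line have the larger second ratio.

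Only 18 members (10.2%) had a gene symbol in the gene table, as did 11.7% of all probe sets with one annotated gene. The others had a locus code alone and are described by their values. The genes with a symbol are taken first, by role.

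Among genes of the wall and of secretion, AT59, a pollen gene of the pectate lyase family, which cuts demethylated pectin, had signals of 197, 141 and 75.4 in bud, 1370, 953 and 1510 in vivo and 53173, 42284 and 58276 in vitro. The 3 groups were far apart, and the means rose 9.27-fold and then 40.1-fold. EXPB5, a beta-expansin of the family that loosens the wall, read 937, 631 and 529 in bud, 2801, 3417 and 5139 in vivo and 57941, 73678 and 56316 in vitro. Its steps were 5.42-fold and 16.5-fold. The in vitro arrays of both genes lay close together, replicate 3 included.

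LCR72, also annotated as PDF2.6 of the defensin-like small cysteine-rich proteins, was bright already in bud, at 9151, 5053 and 1938. It reached 12806, 29187 and 38843 in vivo and 73585, 86450 and 297369 in vitro. Bud replicate 1 came close to in vivo replicate 1 without overlapping it. The steps were 5.01-fold and 5.66-fold, and the second was 2.97-fold without in vitro replicate 3.

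A pair of proteases, enzymes that act on proteins outside the cell or in its secretory path, belonged to the group. SBT3.12, a subtilase, had signals of 36.3, 34.1 and 22.9 in bud, 220, 250 and 543 in vivo and 20268, 16891 and 15902 in vitro, steps of 10.9-fold and 52.4-fold. MMP, a matrix metalloproteinase, had 129, 100 and 37.9 in bud, 245, 315 and 396 in vivo and 5862, 6400 and 5560 in vitro, steps of 3.58-fold and 18.6-fold. In both, the in vitro arrays lay far above the in vivo arrays and close to each other.

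Signalling and protein turnover were represented by 5 members. PIPK11, a phosphatidylinositol phosphate kinase of the family that makes the phosphoinositide PIP2 at the tube's plasma membrane, read 45.7, 59.1 and 4.07 in bud, 390, 271 and 852 in vivo and 27920, 29776 and 33004 in vitro. Its first step of 13.9-fold was among the 6 largest of the group, and its second was 59.9-fold. Bud replicate 3 was far below the other bud arrays, and the first ratio rests on a low bud level.

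The cyclin-dependent kinase gene cdc2cAt gave 37.3, 37.9 and 34.3 in bud, 298, 137 and 358 in vivo and 17706, 14900 and 14002 in vitro. Its bud arrays differed by little, and the steps were 7.25-fold and 58.8-fold. TET13, a tetraspanin, one of a family of membrane proteins that organise membrane patches, gave 83.1, 48.3 and 26.0 in bud, 464, 407 and 549 in vivo and 24131, 21037 and 20177 in vitro. Its steps were 9.03-fold and 46.0-fold, and its arrays were tight in both tube groups.

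PUB15, a U-box protein of the ubiquitin ligase type, rose from 172, 163 and 91.9 in bud to 547, 471 and 1165 in vivo and to 16138, 14652 and 15224 in vitro, by 5.12-fold and 21.1-fold. ATG8H, of the ATG8 family that coats autophagosomes, read 799, 312 and 247 in bud, 2473, 1709 and 991 in vivo and 16878, 13879 and 18370 in vitro. ATG8H differed from the group in its in vivo arrays: replicate 3 was its dimmest, and it lay only just above bud replicate 1. Its steps were 3.81-fold and 9.50-fold.

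The members tied to microtubules were TUA1, an alpha-tubulin, and SP1L4, of the SPIRAL1-like family of microtubule-associated proteins. TUA1 read 661, 617 and 641 in bud, 1755, 1763 and 3683 in vivo and 48537, 51472 and 58789 in vitro, steps of 3.75-fold and 22.1-fold. SP1L4 read 1190, 755 and 350 in bud, 3244, 3175 and 3620 in vivo and 56473, 62195 and 105175 in vitro, steps of 4.38-fold and 22.3-fold. The second steps of the pair were nearly equal in size. SP1L4 had the smallest spread of any member over the in vivo arrays, with the highest array 1.14 times the lowest, while in vivo replicate 3 of TUA1 stood well above the other in vivo arrays.

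Carriers were CHX6B, a member of the cation/H+ exchanger family, and NRAMP5, of the NRAMP family of metal ion transporters. CHX6B was dim in bud, at 45.2, 68.5 and 37.1, and reached 135, 131 and 459 in vivo and 4131, 4364 and 2690 in vitro. NRAMP5 read 161, 139 and 80.6 in bud, 383, 321 and 443 in vivo and 10320, 8832 and 7115 in vitro. In both, in vitro replicate 3 was the dimmest in vitro array. The steps of CHX6B were 4.80-fold and 15.4-fold. NRAMP5 had the smallest first step of all members, 3.02-fold, and a second step of 22.9-fold.

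Of the genes of metabolism, PPDK encodes pyruvate orthophosphate dikinase, which interconverts pyruvate and phosphoenolpyruvate. It read 880, 934 and 427 in bud, 2237, 3981 and 7846 in vivo and 19826, 21232 and 12999 in vitro, and it was one of the 17 members with the larger first step, 6.28-fold against 3.84-fold. Its in vivo replicate 3 came close to in vitro replicate 3. SUFE2, of the SufE family that activates cysteine desulfurase for iron-sulfur cluster assembly, rose from 286, 167 and 83.6 to 427, 473 and 829 and then to 7366, 8190 and 9818, by 3.23-fold and 14.7-fold. SDP1-LIKE, a relative of the oil body lipase SUGAR-DEPENDENT1, rose from 86.6, 151 and 77.4 to 287, 343 and 573 and then to 3371, 3237 and 1769, by 3.82-fold and 6.96-fold. In vivo replicate 3 was the brightest in vivo array of all 3 genes.

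APPB1, for which no role is given here, read 1900, 1266 and 542 in bud, 9197, 10615 and 16054 in vivo and 77041, 67824 and 94294 in vitro. Its steps, 9.67-fold and 6.67-fold, put it with PPDK among the members whose first step was the larger.

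**Figure D3:**
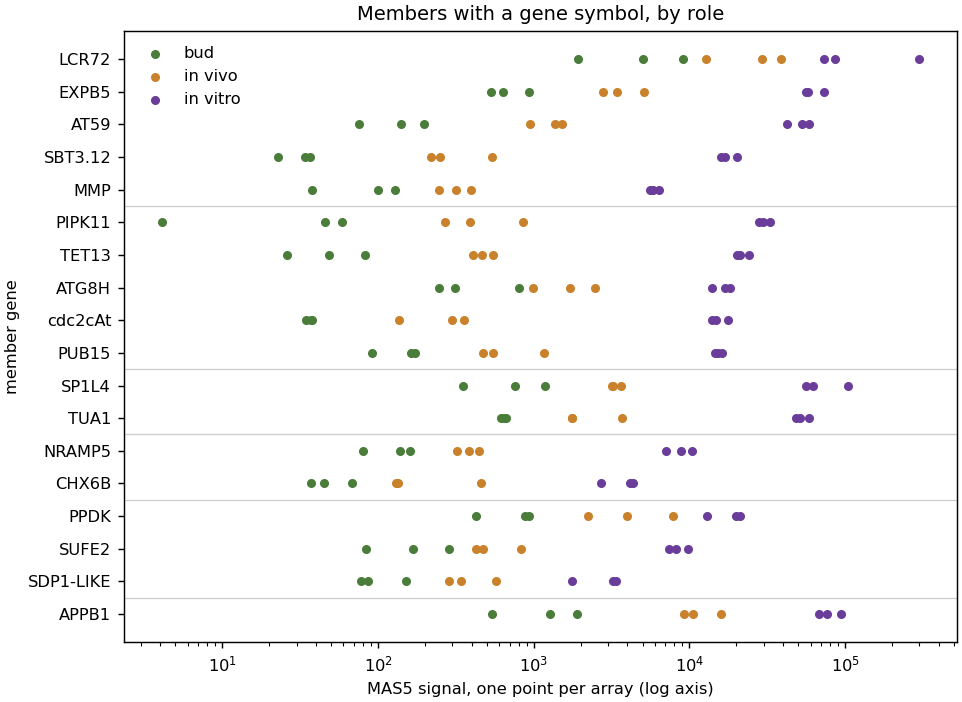
MAS5 signal (log axis) of the 18 members with a gene symbol, 1 point per array, coloured by group; grey lines part the genes of the wall and secretion (top), signalling and turnover, microtubules, carriers, metabolism and APPB1 (bottom). Within each gene the bud, in vivo and in vitro points do not overlap, which the rule required, and PPDK has its in vivo points nearest to its in vitro points.

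The members brightest in vitro had only locus codes. AT3G28750 had the highest mean, 258133, from signals of 100924, 128183 and 545293, after 2856, 2996 and 1580 in bud and 5641, 6350 and 14124 in vivo. AT3G26110 was next, with 7119, 4213 and 1469 in bud, 13366, 31364 and 45179 in vivo and 106248, 138415 and 496728 in vitro, and it was also the brightest member in vivo. Both drew their in vitro mean largely from replicate 3, and their second steps of 29.7-fold and 8.25-fold were 13.2-fold and 4.08-fold without it.

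AT1G10770 and AT2G47050 had their arrays in much the same order. AT1G10770 read 2687, 2300 and 570 in bud, 5016, 9123 and 10111 in vivo and 107641, 113960 and 490541 in vitro. AT2G47050 read 5320, 3698 and 1853 in bud, 7420, 11024 and 16929 in vivo and 89604, 110781 and 449416 in vitro. In both, in vivo replicate 3 was the brightest and bud replicate 3 the dimmest of its group.

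AT3G07820 gave 5212, 2653 and 1581 in bud, 8124, 7431 and 13362 in vivo and 100097, 103540 and 389364 in vitro, a first step of only 3.06-fold. AT1G78460 gave 1129, 1054 and 373 in bud, 4120, 5104 and 6202 in vivo and 105204, 114526 and 329473 in vitro, a first step of 6.03-fold.

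For the 23 members with an in vitro mean above 100000, the signals were 62713 to 107641 on replicate 1, 70503 to 138415 on replicate 2 and 164473 to 545293 on replicate 3. All 23 were brightest on replicate 3, which the choice by a mean that holds replicate 3 largely fixes. Their median second step was 20.5-fold with replicate 3 and 10.6-fold without it.

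The members brightest in vivo were AT3G26110, LCR72 and 4 further loci. AT4G02250 read 9164, 5977 and 2216 in bud, 12843, 26516 and 30880 in vivo and 98777, 95793 and 328950 in vitro, and it had the highest bud mean of the group, 5786. AT5G19580 read 4641, 4709 and 1795 in bud, 12854, 20154 and 32619 in vivo and 86942, 96365 and 273260 in vitro. AT5G47000 read 3244, 3508 and 1580 in bud, 11975, 18117 and 25133 in vivo and 97198, 107976 and 307887 in vitro. In these 3 genes the second step was 6.96-fold to 9.29-fold, below the median of the members, and 4.16-fold to 5.57-fold without in vitro replicate 3.

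AT1G54070, the remaining locus, rose from 3156, 1514 and 417 in bud to 9313, 13245 and 33450 in vivo and to 85996, 94201 and 264214 in vitro. Its first step of 11.0-fold exceeded its second of 7.93-fold, which was 4.83-fold without in vitro replicate 3. Its in vivo replicate 3 stood well above the other in vivo arrays. In vivo means exceeded 10000 for 14 members and lay under 500 for 47.

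Bud means lay under 100 for 46 members, and no detection calls were used. Tapetum genes gave 3.82 to 68.7 on in vitro replicates 1 and 2 and 67.7 to 299 on in vitro replicate 3, the array that stood apart. Arrays were scaled separately, so these ranges are only a rough guide for the flower arrays. Ratios against bud signals in these ranges are uncertain in size and rank, as for AT1G24110, PIPK11 and AT1G04470. The largest first steps were found in AT3G54240, AT1G24110, AT1G74010, PIPK11, AT1G04470 and AT5G55980. AT3G54240 rose 17.5-fold, from 616, 316 and 198 in bud to 4908, 5194 and 9664 in vivo, and then only 4.84-fold, to 35478, 32827 and 27356 in vitro. AT1G24110 rose 16.8-fold, from 40.0, 43.5 and 51.4 to 523, 580 and 1162, and then 25.4-fold, to 17353, 20310 and 19924. AT1G24110 was one of only 6 members for which bud replicate 3 was the brightest bud array.

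AT1G74010 rose 14.3-fold, from 290, 241 and 219 in bud to 2474, 2764 and 5518 in vivo, and then 5.96-fold, to 27686, 21566 and 14862 in vitro. AT1G04470 rose 13-fold, from 64.8, 53.5 and 59.9 to 713, 232 and 1370, and then 56.7-fold, to 41412, 43198 and 46585. AT5G55980 rose 12.9-fold, from 160, 113 and 79.3 to 1038, 939 and 2585, and then 30.1-fold, to 38910, 32715 and 65916. Genes with a large first step thus had second steps on both sides of the group's median, AT1G74010 and AT3G54240 far below it and AT1G04470 far above.

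The 6 genes with the largest second steps had in vivo signals from 186 to 1420. All of these signals lay above the 3.82 to 68.7 that tapetum genes gave on in vitro replicates 1 and 2. Some lay within the 67.7 to 299 of in vitro replicate 3. The second steps that rest on such low signals are therefore also uncertain in size and rank. AT5G20390 rose 124-fold, from 410, 186 and 431 in vivo to 39954, 35203 and 52123 in vitro, after 73.1, 36.9 and 8.53 in bud. AT1G06540 rose 123-fold, from 560, 740 and 1420 to 62713, 81585 and 188885, after 187, 74.3 and 55.0 in bud. AT1G61860 rose 122-fold, from 468, 352 and 495 to 36566, 47289 and 76780, after 189, 78.1 and 74.7 in bud. Their first steps differed: 8.66-fold, 8.61-fold and 3.84-fold. Without in vitro replicate 3 the second step of AT1G06540 was 79.6-fold, just below that of AT3G27410 (80.1-fold), and AT4G33970 and AT5G20390 had the largest of the group, both 110-fold.

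AT4G33970 rose 113-fold, from 286, 243 and 785 in vivo to 65516, 30711 and 52640 in vitro, after 139, 47.3 and 53.3 in bud. AT5G12000 rose 105-fold, from 534, 197 and 894 to 36096, 57520 and 76346, after 175, 84.0 and 27.7 in bud. AT1G75870 rose 100-fold, from 425, 280 and 289 to 29333, 30557 and 39579, after 202, 69.0 and 37.4 in bud. For AT1G75870 the lower in vivo arrays came close to bud replicate 1, while the in vitro arrays stood far above.

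AT1G03050 varied most among the in vivo arrays, at 595, 189 and 1158, a 6.12-fold range, while its bud arrays (99.3, 142 and 40.6) and in vitro arrays (18075, 20353 and 18396) did not overlap these. The median range over the in vivo arrays was 2.21-fold.

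The members varied together within the bud group and within the in vivo group. The rule itself favours members that are bright on in vivo arrays and dim on bud arrays, so the counts were also taken over genes chosen without the array in question, an alternative chosen after seeing the data. In vivo replicate 3 was the brightest in vivo array for 162 of 176 members (92.0%), as it was for 42.9% of all probe sets. Bud replicate 3 was the dimmest bud array for 156 members (88.6%), as it was for 31.8% of all probe sets. Bud replicate 1 was the brightest for 124. Among 481 probe sets that did not meet the pattern but were at least 10 times brighter in vitro than in bud and reached 200 in vivo, in vivo replicate 3 was the brightest for 70.5% and bud replicate 3 the dimmest for 56.8%. Among the 141 genes that met the rule on the other 8 arrays, without in vivo replicate 3, that array was the brightest in vivo array for 127 (90.1%). Among the 150 chosen without bud replicate 3, that array was the dimmest bud array for 130 (86.7%). The 481 probe sets were chosen in part for failing the rule. The genes share the arrays, so these counts describe 6 arrays and were not tested. With equal array medians, in vivo replicate 3 was the brightest for 157 members, and after quantile normalization for 161.

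**Figure D4:**
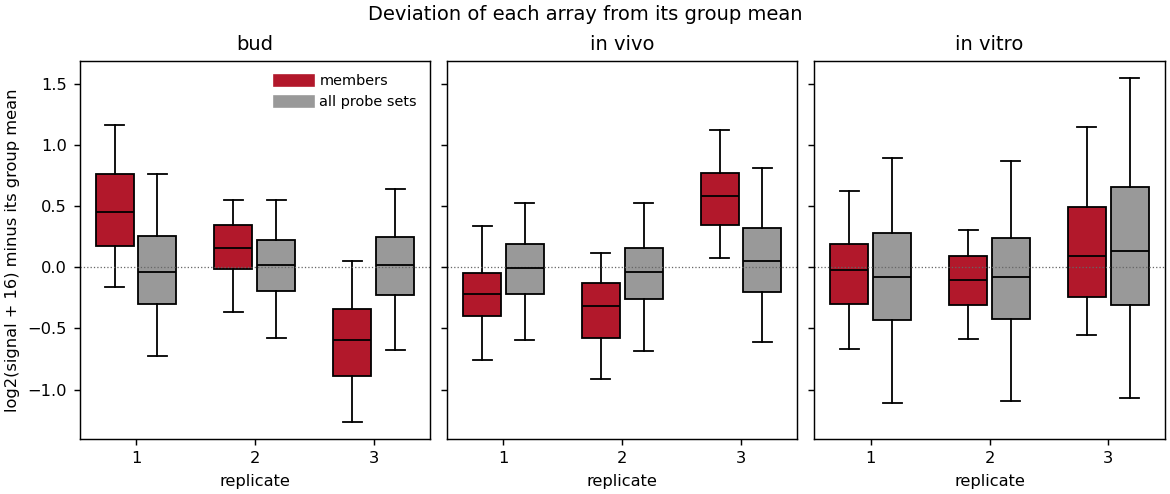
Deviation of each array from its group mean on the log2(signal + 16) scale, for the 176 members (red) and all 22746 probe sets (grey); boxes span the quartiles with the median, whiskers the 5th to 95th percentiles. The members' median deviation is 0.59 on in vivo replicate 3 and -0.59 on bud replicate 3, where all probe sets have 0.05 and 0.02.

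Some marker sums followed the order of the members and others did not. On bud replicates 1, 2 and 3 the photosynthesis genes summed to 40859, 31192 and 56986, the tapetum genes to 14612, 23313 and 20249 and the pistil and ovule genes to 1951, 2674 and 2830. The nectary and petal genes summed to 2680, 2165 and 1086 on these arrays and the sperm cell genes to 893, 1031 and 632, both lowest on replicate 3 like the members. The order of the nectary and petal sum over replicates 1 and 2 came from BSMT1 (1504, 915 and 784), since SWEET9 (633, 648 and 213) and AT3G25810 (543, 601 and 88.8) were highest on replicate 2. On in vivo replicates 1, 2 and 3 the tapetum genes summed to 783, 521 and 1063 and the sperm cell genes to 260, 246 and 346, the order of the members' medians, although TET11 (43.6, 48.8 and 25.9) was lowest on replicate 3. The tapetum sum was mostly EMS1 (700, 468 and 827). ATA27 and SHT kept its order at low signals, while AMS (14.4, 34.3 and 30.2) and AT5G07230 (8.47, 10.4 and 25.6) did not. The nectary and petal genes summed to 11558, 12767 and 17405 in vivo, also highest on replicate 3, but the photosynthesis genes to 30032, 45862 and 38891 and the pistil and ovule genes to 2682, 2292 and 2139 did not follow. The pistil and ovule sum was mostly FER (2157, 1734 and 1642 in vivo), which did not follow, nor did SPT (200, 238 and 148). INO did, by little: it was lowest on bud replicate 3 (321, 312 and 263) and highest on in vivo replicate 3 (326, 320 and 349). The part of all these markers in the order of the arrays was not tested.

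The in vitro arrays gave no single order but one that changed with brightness. Members were split by in vitro means, which hold replicate 3, and again by in vitro replicate 2 alone, a split chosen after seeing the data. Among the 59 members with the lowest in vitro means (1167 to 15536), replicate 3 exceeded replicate 1 for 6, with a median ratio of 0.692. Among the 58 in the middle it did so for 31, with a median ratio of 1.04. Among the 59 brightest (44809 to 258133) it did so for 54, with a median ratio of 2.12. Split by replicate 2 alone, the median ratios of replicate 3 to 1 were 0.707, 1.03 and 2.12, and replicate 3 was above replicate 1 for 7, 30 and 54 members. In the flower samples the medians kept 1 direction in all 3 classes. The median ratio of in vivo replicate 3 to 1 was 1.68, 1.84 and 1.79, and that of bud replicate 3 to 1 was 0.607, 0.472 and 0.330.

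The thresholds cut through a continuous range for the first step and the in vivo level. Just inside the first threshold lay NRAMP5 (3.02), AT3G01250 (3.02) and AT5G47620 (3.04), and just outside it AT4G39670 (2.96), AT2G10970 (2.95) and AT5G24940 (2.94). The second threshold of 2 excluded few genes. The lowest members were AT5G61720 (2.45), AT1G35190 (2.85) and AT4G15980 (3.42), and only AT4G00350 (1.90) and AT3G28830 (1.80) missed this threshold alone. Around the in vivo minimum of 200 lay AT2G22340 (229), AT5G40645 (232) and AT4G32630 (233) inside and AT3G28490 (196), AT2G04220 (196) and NET2C (185) outside. The order of the groups without any size threshold, no arrays overlapping, was met by 861 probe sets, 3.79% of all.

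Outside the group, the genes most like it by Pearson correlation with the mean standardised member profile on the log2 scale, over 9 arrays in 3 groups, were AT3G55430 (0.998), AT1G49490 (0.997), AT4G39110 (0.996), AT3G19020 (0.996), AT1G54290 (0.995) and AT4G39670 (0.993). Members themselves had correlations of 0.908 to 0.999 with this profile. AT1G49490, AT4G39110 and AT3G19020 meet the pattern and were left out by name. AT3G55430 read 4375, 4640 and 3694 in bud, 8084, 8982 and 12215 in vivo and 45543, 41333 and 45036 in vitro, steps of 2.30-fold and 4.51-fold. AT1G54290 and AT4G39670 missed only the first threshold, with 2.73-fold and 2.96-fold.

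The members were spread over the genome. By locus code, 45 lay on chromosome 1, 23 on chromosome 2, 44 on chromosome 3, 24 on chromosome 4 and 40 on chromosome 5, or 25.6%, 13.1%, 25.0%, 13.6% and 22.7%, where all probe sets with one gene had 25.7%, 16.3%, 20.4%, 14.5% and 22.3%. In the gene order of the TAIR10.1 assembly, 2 pairs of members were direct neighbours, AT3G01620 with AT3G01630 and AT5G61710 with AT5G61720. That made 4 of 127 members with a named, measured neighbour (3.15%), against 1.90% of 8807 other genes that lay next to a member.

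Other genes of pollen tube growth were taken from 7 hand-compiled lists of 130 genes, of which 39 were measured. The lists were compiled with earlier results of these data known, so the counts below are a description. Of the 39, 9 were members, among them AT59 and PIPK11, and 7 of the 9 came from the list of cell wall synthesis and pectin. Another 8 met the pattern and were left out by name, such as ANX1, ANX2, PLIM2a and PLIM2b. Over all probe sets, 1.27% met the pattern, and 176 of 13513 with one annotated gene were members. Of the 22 that remain, 15 have a name in the gene table. Genes that met the whole rule on these same values had been taken out beforehand. That largely fixes a low count of calls at the first step, so nothing is read from that count. By limma with Benjamini-Hochberg adjustment over all probe sets, 18 of 22 were higher in vitro than in vivo (background 20.0%) and 18 higher in vitro than in bud (background 20.4%), and 0 were lower in either (background 39.4% and 40.5%; also 0 at an unadjusted p under 0.05). Between in vivo and bud, 0 of 22 were called higher (background 2.15%) and 2 lower (background 1.87%); at an unadjusted p under 0.05 the counts were 5 and 3. The median log2 difference of the 22 was 0.28 in vivo against bud, 3.65 in vitro against bud and 3.36 in vitro against in vivo, beside -0.02, -0.42 and -0.36 over all probe sets. Among the 22, AT3G19940 and BZIP34 had both steps with no arrays overlapping and missed only the in vivo minimum of 200. AT3G19940 had means of 1.64 in bud, at the floor of the scale, 21.1 in vivo and 1789 in vitro. BZIP34 had means of 24.5, 106 and 1309.

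Of the 8 transcription factors measured, which include MIKC*-type MADS proteins active in late pollen, 7 rose in vitro. AGL18 read 448, 665 and 563 in bud, 831, 826 and 1389 in vivo and 12554, 11341 and 10112 in vitro. It was higher in vitro than in vivo by 3.50 ± 0.33 on the log2 scale (SE, adjusted p = 4.2e-06, limma), and its difference between in vivo and bud was 0.82 ± 0.33 (adjusted p = 0.32). AGL65 read 102, 148 and 133 in bud, 107, 149 and 262 in vivo and 3850, 4328 and 4438 in vitro, so its bud and in vivo arrays overlapped while the in vitro arrays stood far higher.

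AGL30, AGL66, AGL104, BZIP18 and BZIP34 were likewise higher in vitro than in vivo, by 3.97, 3.36, 3.85, 4.70 and 3.36 on the log2 scale. BZIP34 read 4.01, 30.3 and 39.2 in bud and 98.2, 115 and 104 in vivo. It came closest to a call at the first step, with a difference of 1.71 ± 0.44 (adjusted p = 0.059, limma). It was called higher when dim probe sets were filtered out (adjusted p = 0.037) and when the 6 arrays of the 2 groups were fitted alone (adjusted p = 0.032). AGL94 had 15.4 to 179 in vitro and was not called in any contrast of the reported fit. With equal array medians it was called higher in vitro than in bud (adjusted p = 0.037, limma) and than in vivo (adjusted p = 0.020, limma). It was also called higher than in vivo after quantile normalization (adjusted p = 0.037, limma) and without in vitro replicate 1 (adjusted p = 0.027, limma).

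The 4 actin and myosin genes outside the group were higher in vitro than in vivo. None was called higher in vivo than in bud, which the choice of genes outside the group largely fixes. ACT11 read 1027, 790 and 985 in bud, 1021, 975 and 1902 in vivo and 10229, 10581 and 8513 in vitro, a log2 difference between in vitro and in vivo of 2.96 ± 0.35 (adjusted p = 1.9e-05, limma). ACT12 differed by 3.20 ± 0.39 (adjusted p = 2.6e-05, limma). The myosin XIE fell between bud (326, 443 and 262) and in vivo (59.1, 5.74 and 95.4), by 2.64 on the log2 scale (SE 0.55, adjusted p = 0.018, limma), and then rose to 1797, 1568 and 983 in vitro. This fall was not called without bud replicate 1, 2 or 3 (adjusted p = 0.070, 0.095 and 0.054, limma) or with an offset of 1 (adjusted p = 0.115, limma). At that offset XIE was also not called higher in vitro than in bud (adjusted p = 0.072, limma). XIC read 167, 256 and 132 in bud, 44.3, 67.7 and 91.9 in vivo and 372, 342 and 377 in vitro. It was 0.96 ± 0.35 higher in vitro than in bud (adjusted p = 0.033, limma), a call lost without bud replicate 1 or 3 or in vitro replicate 1 or 2 (adjusted p = 0.051 to 0.12). That call was also lost with an offset of 1 (adjusted p = 0.053) and with the 6 arrays of bud and in vitro fitted alone (adjusted p = 0.0504).

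Of the carriers outside the group, CHX19, a relative of the member CHX6B, went the opposite way at the first step. It read 390, 735 and 311 in bud, 9.01, 4.10 and 40.1 in vivo and 1893, 1761 and 1415 in vitro. It fell by 3.93 on the log2 scale from bud to in vivo (SE 0.45, adjusted p = 0.00042, limma) and was 5.80 ± 0.45 higher in vitro than in vivo (adjusted p = 1.0e-06, limma). CHX21 read 1.62, 2.12 and 2.23 in bud, 1.44, 5.88 and 1.45 in vivo and 305, 236 and 451 in vitro, at the floor of the scale in both flower groups. GLR1.2, a glutamate receptor-like channel of the calcium list, was 1.06 ± 0.34 higher in vitro than in vivo (adjusted p = 0.018, limma), at signals of only 50.3 to 92.0 in vitro, and this call was lost without in vivo replicate 1 or 3 or in vitro replicate 1 or 2 (adjusted p = 0.050 to 0.067).

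**Figure D5:**
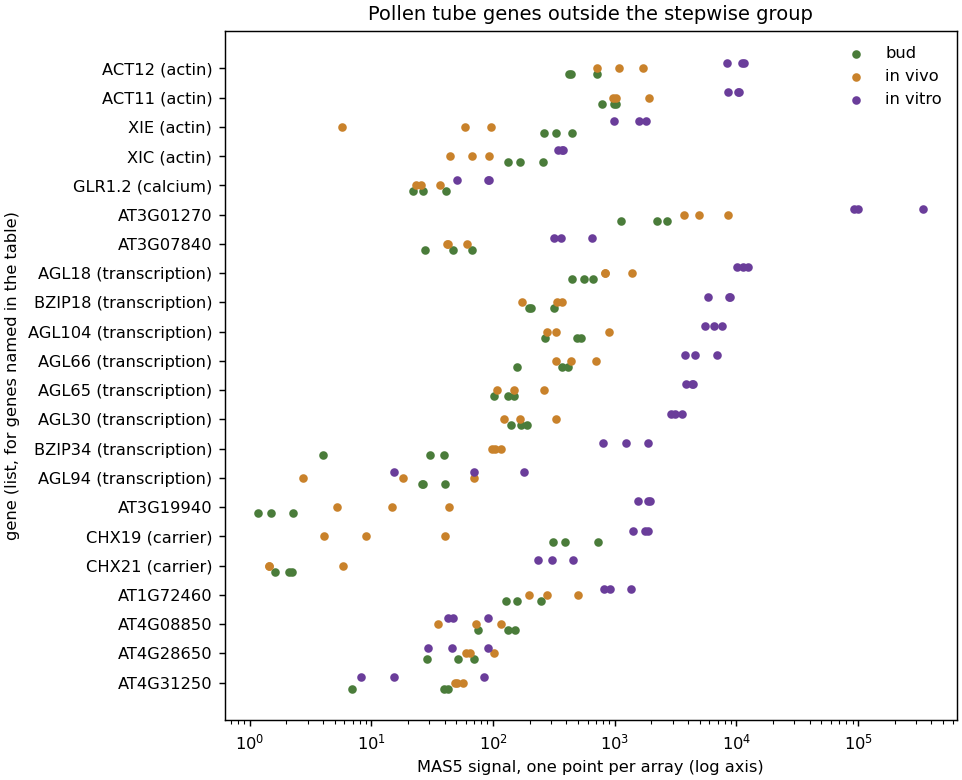
MAS5 signal (log axis) of the 22 listed pollen tube genes outside the stepwise group, 1 point per array, coloured by group, with the list in brackets where the gene table names the gene. For most genes the bud and in vivo points lie together and the in vitro points to their right; XIE, XIC and CHX19 have their in vivo points to the left of their bud points. Genes that met the whole rule are not shown, which favours bud and in vivo points that lie together.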

How the data were processed

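The deposited values are intensity values on a linear scale, 1 for each probe set on each array. The authors made them with MAS5 (per the submitters' processing notes; version not given in the sources used here). Detection calls were not used. Of 22810 probe sets, 64 controls were left out and 22746 tested; the gene table gave several genes for 503 and did not list 8730. The members' rule was applied to group means of the linear values. For tests, log2(value + 16) was fitted with limma 3.58.1 in R 4.3.3 to all 9 arrays, 1 mean per group, with no filter and no rescaling; the fit was checked on simulated data. A call is an adjusted p under 0.05 (Benjamini-Hochberg over all 22746). The number of arrays limits the precision.

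The members, the lists and the rules were chosen with earlier results of these data known. Values on all 9 arrays are given for the members in the top 6 by in vitro level, in vivo level, first ratio and second ratio, for the member most variable in vivo and for members with a symbol; probe sets nearest each threshold and the 6 nearest in pattern are named too. Roles are background knowledge, given only to genes that the gene table or RefSeq (TAIR10.1) names; no coordinates are printed, since the build of the probe annotation was not stated. Promoter sequences were not analysed here. Alternatives changed the scaling, offset, filter, thresholds, arrays in the fit and the replicate block.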

Additional observations from a re-analysis of the deposited data

How the results depend on the processing

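The number of members was 126 to 246 under 17 alternatives: 179 with equal array medians, 161 after quantile normalization, 155 with group medians, 190 and 142 with in vivo minimums of 100 and 400, 246 and 126 with looser and stricter ratios, 178 with overlap allowed and 141 to 203 with 1 array left out. The membership changed more than the totals. Of the 179, 161 and 155, those also among the reported 176 numbered 169, 145 and 152. For the 22 listed genes outside the group, calls higher in vitro numbered 16 to 19 against bud and 17 to 19 against in vivo over 16 alternatives. AGL94 was the gene gained in vitro with equal array medians, after quantile normalization and without in vitro replicate 1. Calls higher in vivo than in bud, 0 in the reported fit, were 1 (BZIP34) with a filter on dim probe sets and with 6 arrays, and 0 to 1 with 1 array left out (BZIP34 without in vitro replicate 1 or 3). Calls lower in vivo than in bud, 2 as reported, were 1 with an offset of 1 and 1 to 2 with 1 array left out. XIE was the call lost, at that offset and without any 1 bud array. Calls lower in vitro than in bud and than in vivo, 0 as reported, were 0 to 1 with 1 array left out: AT4G08850 against bud without in vitro replicate 3 and AT4G31250 against in vivo without in vitro replicate 2. Over the 141 genes chosen without in vivo replicate 3, an alternative chosen after seeing the data, that array was the brightest in vivo for 127. The cause of these changes was not tested. Same-numbered arrays deviated together little (correlations of -0.0458 to 0.0734 over 3 pairs of groups). The labels give only a replicate number, and these correlations cannot show whether same-numbered arrays shared a batch. With the replicate number as a block, calls higher in vitro remained 18 against bud and 18 against in vivo and calls lower in vivo 2.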
